A study of Mus with 6 samples.

Results

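The genes described here are 9 markers of basal forebrain cholinergic neurons, the cells that supply acetylcholine to cortex, hippocampus and amygdala. They are Chat, Slc18a3, Slc5a7, Ache, Lhx8, Ngfr, Slc10a4, Ecel1 and Gbx2, chosen by symbol from a table of 54532 genes, and each symbol matched 1 gene. The list was put together with the differences between these same libraries already known, so those differences are given as a description and not as a finding. The data are 6 RNA sequencing libraries of mouse brain tissue labelled as basolateral amygdala, all labelled male. The wild-type group (WT) and the group labelled CNTNAP4-KO (KO) hold 3 libraries each. The labels give no strain, age or treatment, nor which part of Cntnap4, a neuronal adhesion gene of the neurexin superfamily, was removed, nor whether a library came from 1 animal. A bacterium, Lactobacillus reuteri, stands in the series title, but none of the 6 libraries is labelled as treated with it.

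Cholinergic neurons make acetylcholine from choline and acetyl-CoA with choline acetyltransferase (Chat) and load it into vesicles with the vesicular transporter (Slc18a3). Acetylcholinesterase (Ache) splits it in the synaptic cleft, and the choline transporter (Slc5a7) brings the choline back into the terminal. The transcription factor Lhx8 specifies and maintains the cholinergic identity of these cells, and the p75 neurotrophin receptor (Ngfr) marks the projection neurons of the basal forebrain and not the cholinergic interneurons of adult striatum. Cholinergic fibres from the nucleus basalis are dense in the basolateral amygdala, but transcripts come mostly from cell bodies, which lie in the neighbouring basal forebrain and striatum.

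Libraries held 17647556 to 20813211 reads in genes. The values are FPKM, in which fragments are divided by gene length and library size, which puts different genes on a scale per length. Whether coverage or the assignment of shared reads differs between genes was not checked, so orders of genes by level are approximate. Cntnap4 itself, in order of replicates 1 to 3, stood at 2.03, 3.59 and 4.91 FPKM in the WT libraries and at 1.61, 1.00 and 1.48 in the KO libraries. The library labelled KO replicate 1 goes against its male label, with Xist at 43.0 FPKM and 0 reads on 4 Y-linked genes. KO replicate 2 stands apart in regional markers: it held the hypothalamic hormone gene Avp at 2.20 FPKM, against 325 to 894 FPKM in the other 5. The excitatory neuron gene Slc17a7 stood at 5.69, 5.37 and 6.42 FPKM in the WT libraries and at 21.4, 94.3 and 19.1 in the KO libraries. It was thus highest in KO replicate 2, but every KO library lay above every WT library, as for 11.8% of all genes tested. Rspo2, a marker of excitatory neurons of the labelled region, was low in WT (0.438 ± 0.0751 FPKM) and higher in KO (0.915 ± 0.188 FPKM, SD, n = 3 each). The striatal gene Penk was abundant in WT (383 ± 64.3 FPKM) and in KO (471 ± 24.4 FPKM, SD, n = 3 each). How much tissue of each region a piece held was not measured.

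All 9 cholinergic genes were detected in every library, and 8 of them at more than 5 FPKM throughout. In WT the order of the levels was Ache (40.9 FPKM), Ecel1 (34.8), Ngfr (22.0), Slc10a4 (18.3), Slc5a7 (17.8), Lhx8 (14.3), Chat (13.2), Slc18a3 (11.1) and Gbx2 (1.41). The WT libraries of Slc10a4 and Slc5a7 overlapped, as did those of Slc5a7 and Lhx8 and of Lhx8 and Chat, whereas the other neighbours in this order were separated in all 3. In KO the first places were again Ache (33.7 FPKM) and Ecel1 (24.9), whose libraries overlapped there. Ngfr, the third in WT, was the sixth in KO at 10.3 FPKM, behind Slc10a4 (14.0), Slc5a7 (10.6) and Lhx8 (10.4). Only the steps from Ecel1 to Slc10a4 and from Slc18a3 to Gbx2 were free of overlap in KO.

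Among markers of other cholinergic cells, several were near the limit of detection and others were not. Mnx1, a transcription factor of motor neurons, and Hoxc4 were at 0 reads in all 6 libraries, and Isl2 had at most 4 reads. Calca and Prph, also motor neuron markers, had more. Calca had 10 to 25 reads, and Prph had 3 to 7 reads in WT and 15, 31 and 2 in KO replicates 1 to 3. In the motor neuron list of 6 genes the summed level was 0.342 to 0.845 FPKM in WT and 0.484 to 1.70 FPKM in KO. Of the medial habenula list, Pou4f1 had at most 4 reads in any library, Chrnb3 5 to 13, Chrnb4 4 to 16 and Chrna3 20 to 33. Gpr151 of that list had 11 to 23 reads. Tac2 and Nwd2 of the same list were well above that limit, Tac2 at 84 to 424 reads (3.37 to 15.6 FPKM) and Nwd2 at 176 to 495 reads (0.776 to 2.62 FPKM). The 7 genes of the list summed to 12 to 15.7 FPKM in WT and 7.21 to 17.7 FPKM in KO. Lhx8, Gbx1 and Nkx2-1, transcription factors of the ventral forebrain, were all present (14.3, 6.33 and 4.87 FPKM in WT). Apart from Ngfr, most of the 9 genes are also expressed by cholinergic interneurons of striatum, so their levels cannot be assigned to basal forebrain cells alone. A limit of 3 reads covers counting error only, since reads carry no molecular identifiers.

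The mean of every one of the 9 genes was lower in KO than in WT. The KO mean ran from 46.9% of the WT mean for Ngfr to 82.3% for Ache. For Chat, Slc18a3, Slc5a7, Ngfr and Ecel1 each KO library lay below each WT library, which is 5 of 9 genes. Over all 16155 genes tested, KO lay entirely below WT for 10.8%, and since the list was chosen with this contrast known nothing is read from the comparison of these shares. Differences below are log2(FPKM + 0.5) in KO minus WT with the standard error from a limma fit across all genes, and this scale understates the change of low genes. The median difference was -0.48 for the 9 genes and 0.01 for all genes tested. None of the 9 passed the limma test after adjustment over all genes, where 1 of 16155 genes passed as lower (0.00619%). Cntnap4, the gene named in the KO label, did not pass either, with a log2 difference of -1.05 ± 0.28 (limma adjusted p = 0.22). A gene that did not pass is therefore not shown to be unchanged. At an unadjusted p under 0.05, limma gave 7 of the 9 as lower, beside 6.85% of all genes, and voom on recovered reads gave 0 after adjustment and 7 before it. The unadjusted count was 5 in limma without its trend and robust modes and 6 with the replicate number as a block. It was 5 to 8 when 1 library was left out. Since the list was chosen with this contrast known, nothing is read from these counts either. In bulk tissue, fewer cholinergic cells in a piece and less RNA per cell cannot be told apart.

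**Figure D1:**
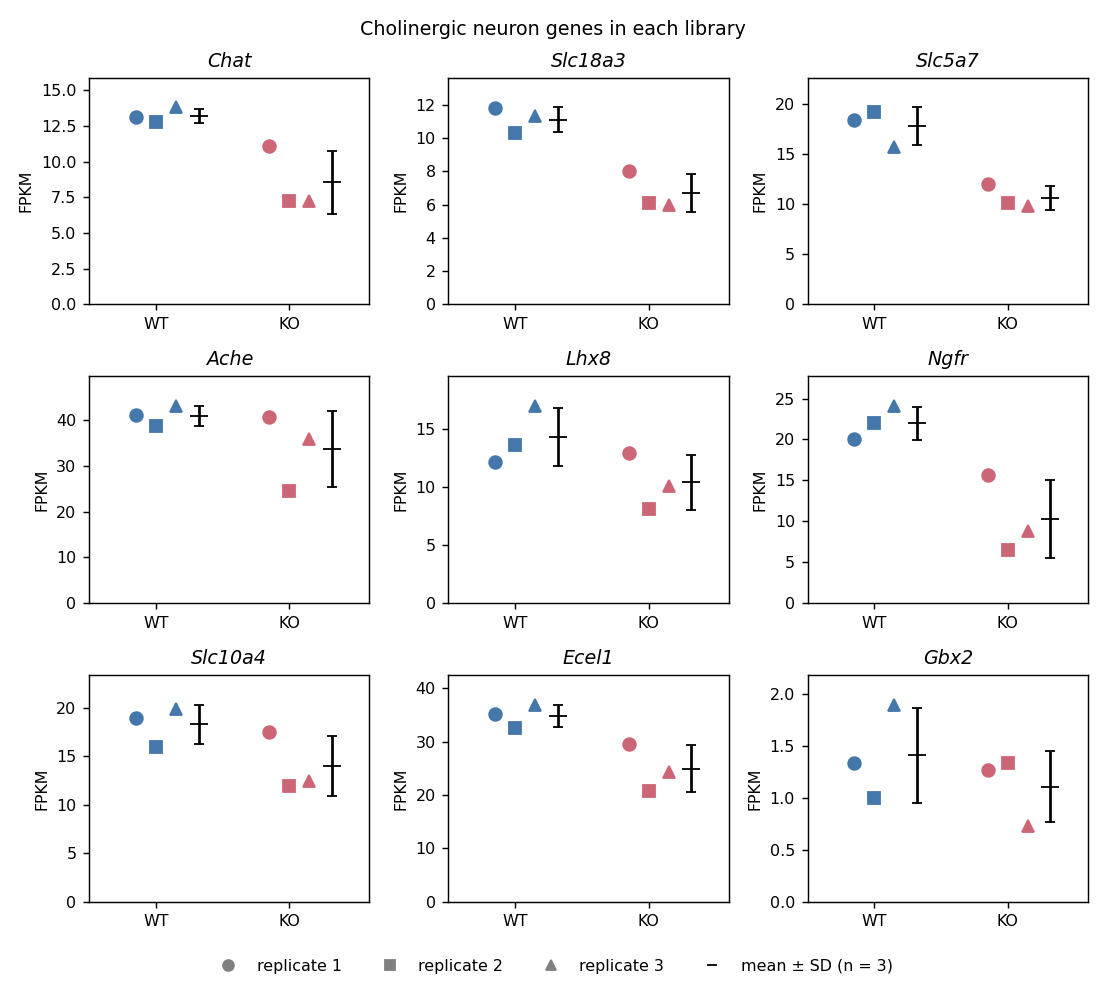
FPKM of each cholinergic gene in each library (vertical axes start at 0; circles, squares and triangles are replicates 1 to 3; black bars are the mean ± SD, n = 3). All KO points lie below all WT points for Chat, Slc18a3, Slc5a7, Ngfr and Ecel1, and KO replicate 1 is the highest KO point in every panel but Gbx2.

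The genes of acetylcholine synthesis, storage and choline uptake all had KO replicate 1 as the highest KO library. The order of their WT libraries differed. Chat (ENSMUSG00000021919, chromosome 14, 32408203 to 32465989, minus strand, build GRCm38) stood at 13.1, 12.8 and 13.8 FPKM in the WT libraries and at 11.1, 7.26 and 7.26 in the KO libraries. The WT libraries lay close together, KO replicate 1 lay just below them, and KO replicates 2 and 3 were far lower and equal to each other. The log2 difference was -0.63 ± 0.16, with means of 13.2 ± 0.511 FPKM for WT and 8.54 ± 2.21 for KO (SD, n = 3 each). Between 605 and 1407 reads stand behind each Chat value, and the 95% Poisson interval of KO replicate 1 (10.4 to 11.8 FPKM) did not reach that of WT replicate 2 (12 to 13.5 FPKM), which covers counting error only.

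Slc18a3, the vesicular acetylcholine transporter gene, lies inside the Chat gene on the same strand (32462438 to 32464850), and its 5′ end is 1139 bases downstream of the 5′ end of Chat. Its span equals its annotated length, so it has no intron. It stood at 11.8, 10.3 and 11.3 FPKM in the WT libraries and at 8.02, 6.09 and 5.99 in the KO libraries. KO replicate 1 again lay between the WT libraries and the other KO libraries. The log2 difference was -0.70 ± 0.12. The ratio of Slc18a3 to Chat in the same library was 0.844 ± 0.0477 in WT and 0.796 ± 0.0631 in KO (SD, n = 3 each), with overlapping libraries. The sources used here do not say how reads shared by the 2 overlapping genes were assigned or whether counting used strand, so each of them could hold reads of the other. An antisense gene model, Gm2990, also overlaps Chat, at 1.02 FPKM in WT and 0.767 FPKM in KO.

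Slc5a7, which encodes the choline transporter of the cholinergic terminal (chromosome 17, 54273590 to 54299034), stood at 18.4, 19.2 and 15.7 FPKM in the WT libraries and at 12, 10.1 and 9.80 in the KO libraries. The highest KO library stood below the lowest WT library by more than the range of the KO libraries. Its log2 difference was -0.71 ± 0.11, the smallest standard error among the 9 genes. Its ratio to Chat was 1.35 ± 0.190 in WT and 1.27 ± 0.167 in KO (SD, n = 3 each), and the libraries overlapped.

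Slc10a4, an orphan transporter found on cholinergic and monoaminergic vesicles (chromosome 5, 73006883 to 73012955), stood at 18.9, 16.0 and 19.9 FPKM in the WT libraries and at 17.5, 11.9 and 12.5 in the KO libraries. KO replicate 1 lay within the WT range and the other KO libraries below it. The log2 difference was -0.39 ± 0.16. Relative to Chat the gene was at 1.25 to 1.45 in WT and at 1.58 to 1.72 in KO, so every KO ratio lay above every WT ratio. Chat was itself lower in KO and was chosen with this contrast known, so a gene that differs less than Chat has higher ratios there. The share of all genes with such ratios to Chat was not computed, for this gene or the others.

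Ache, which encodes the enzyme that ends the action of acetylcholine and is also made by cells that receive cholinergic input, was the most abundant of the 9 (chromosome 5, 137287519 to 137294466). It stood at 41.1, 38.7 and 43.0 FPKM in the WT libraries and at 40.7, 24.6 and 35.8 in the KO libraries. KO replicate 1 lay within the WT range, KO replicate 3 just below it, and KO replicate 2 far below. The log2 difference of -0.31 ± 0.18 was -0.10 without KO replicate 2. The ratio of Ache to Chat was 3.03 to 3.13 in WT and 3.39 to 4.93 in KO, again without overlap and with the lower Chat level of KO as the divisor. Ache overlaps the antisense model Gm42456 (3.11 FPKM in WT, 2.13 in KO), so some of its reads are uncertain.

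Ngfr, the receptor gene that sets basal forebrain projection neurons apart from striatal cholinergic cells, had the largest difference of the 9. It (chromosome 11, 95568818 to 95587735) stood at 20.1, 22.0 and 24.1 FPKM in the WT libraries and at 15.7, 6.52 and 8.81 in the KO libraries. All KO libraries lay below WT, and the spread among them (4.76 FPKM, SD) was larger than that among WT (2.01 FPKM, SD). The log2 difference was -1.14 ± 0.28, and leaving out KO replicate 2 gave -0.87, KO replicate 1 -1.48. Relative to Chat, Ngfr was at 1.53, 1.72 and 1.75 in WT and at 1.41, 0.899 and 1.21 in KO, so it was lower in KO beyond the difference of Chat itself in all 3 libraries.

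**Figure D2:**
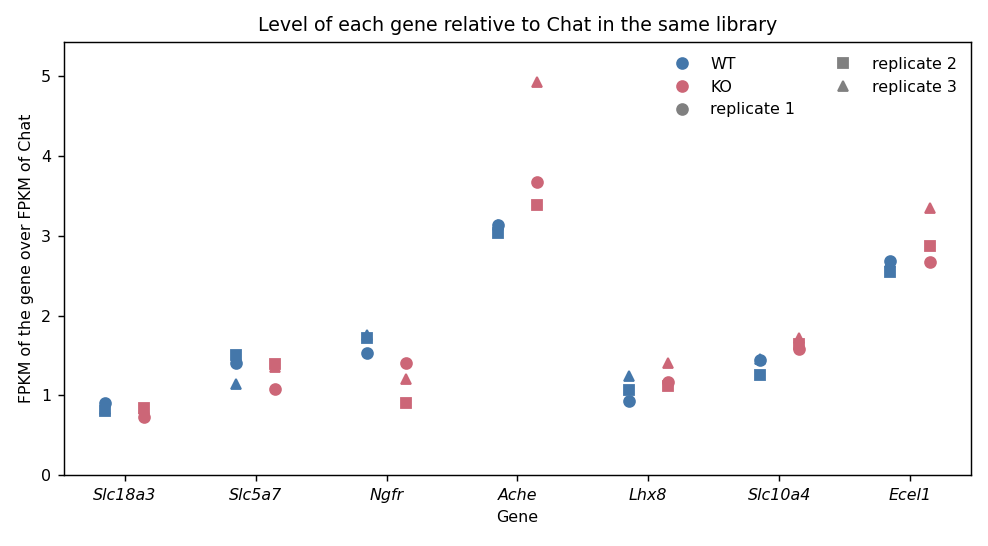
FPKM of each gene divided by FPKM of Chat in the same library (vertical axis starts at 0; blue WT, red KO; symbols mark replicates 1 to 3; Gbx2 left out for its low level). Slc18a3 and Slc5a7 overlap between the groups, Ngfr ratios are lower in KO, and Ache and Slc10a4 ratios are higher in KO. Chat, the divisor, is itself lower in KO.

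Lhx8, the LIM homeobox factor of cholinergic identity (chromosome 3, 154306294 to 154330659), stood at 12.2, 13.6 and 17.0 FPKM in the WT libraries and at 12.9, 8.14 and 10.1 in the KO libraries. WT replicate 3 was the highest, and KO replicate 1 lay within the WT range. The log2 difference of -0.45 ± 0.18 was -0.29 without KO replicate 2. Its ratio to Chat overlapped between the groups, at 0.933 to 1.24 in WT and 1.12 to 1.40 in KO. Gbx2, a homeobox factor of developing cholinergic interneurons and thalamus (chromosome 1, 89927956 to 89931179), stood at 1.34, 0.996 and 1.90 FPKM in the WT libraries and at 1.27, 1.34 and 0.726 in the KO libraries. These Gbx2 values rest on 28 to 90 reads and overlap between the groups. The log2 difference was -0.24 ± 0.23, and without KO replicate 3 it was -0.06.

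Ecel1, a neuronal membrane protease of the endothelin-converting enzyme family (chromosome 1, 87147655 to 87156521), lies 2.77 Mb from Gbx2 and was the second most abundant of the 9. It stood at 35.1, 32.5 and 36.8 FPKM in the WT libraries and at 29.6, 20.8 and 24.3 in the KO libraries. No KO library reached the WT range, and KO replicate 1 was the nearest to it. The log2 difference was -0.48 ± 0.13.

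The KO libraries differed among themselves in the same order for most of these genes. KO replicate 1, the library with Xist, was the highest KO library for 8 of the 9 genes, Gbx2 being the exception. The lowest of all 6 libraries was KO replicate 2 for 6 genes (for Chat by less than the rounding) and KO replicate 3 for Slc18a3, Slc5a7 and Gbx2. The median over the 9 genes of the log2 level minus the WT mean was -0.23 in KO replicate 1, -0.76 in KO replicate 2 and -0.62 in KO replicate 3, against -0.08 to 0.08 in WT. In each KO library all 9 genes were below their WT mean. Without KO replicate 1 the groups were free of overlap for 8 of 9 genes (15.9% of all genes), and without KO replicate 2 for 5 (16.2% of all genes). For the median log2 difference of the 9, leaving out KO replicate 1 gave -0.61 and KO replicate 2 -0.36.

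**Figure D3:**
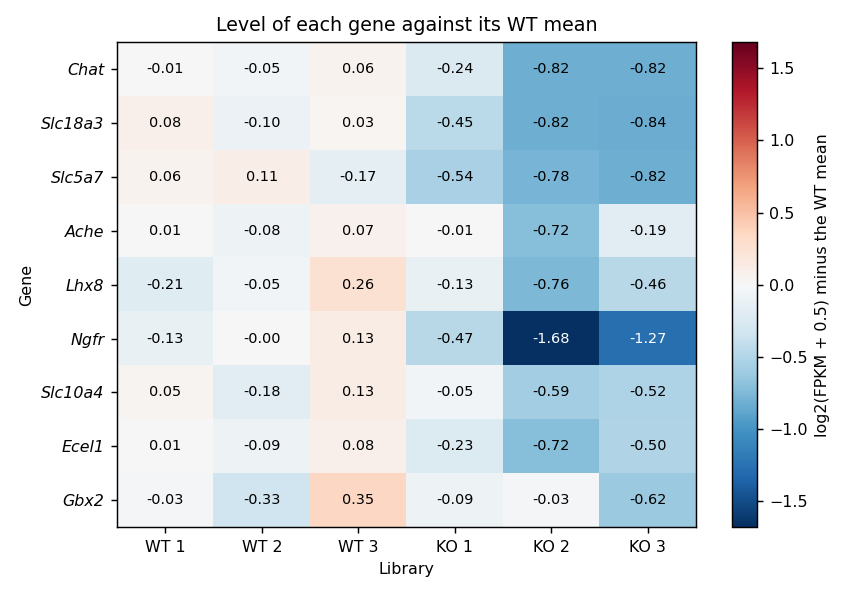
Each cell gives log2(FPKM + 0.5) of a gene (rows) in a library (columns) minus the mean of the 3 WT libraries. All KO cells are below 0, from -0.01 for Ache in KO replicate 1 to -1.68 for Ngfr in KO replicate 2.

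Genes around the cholinergic synapse did not share one direction. None of the genes of the 6 related lists passed the limma test after adjustment over all genes, by limma-trend or by voom on recovered reads, beside 1 gene lower and 1 higher (0.00619% of 16155 each). Unadjusted counts at p under 0.05 are given beside 6.85% of all genes as lower and 8.36% as higher. Of 11 transcription factors of cholinergic fate, all tested, 4 were lower and 2 higher at that level, with a median log2 difference of -0.21. Nkx2-1, which specifies the ventral forebrain progenitors of these cells, averaged 4.87 ± 0.201 FPKM over WT and 3.32 ± 0.750 over KO (SD, n = 3 each, limma adjusted p = 0.231). Gbx1, a homeobox factor of basal forebrain cholinergic neurons, measured 6.33 ± 0.524 and 4.73 ± 0.985 FPKM (adjusted p = 0.283). Both had every KO library below every WT library, as had 10.8% of all genes tested. Ldb1, the cofactor that LIM homeobox proteins such as Lhx8 bind, lay the other way, at 25.7 ± 2.69 and 30.6 ± 1.08 FPKM (adjusted p = 0.285). Isl1, a partner factor of Lhx8 in these neurons, was at 4.34 ± 0.385 and 3.70 ± 0.448 FPKM with overlapping libraries; it was named after its values were seen.

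Genes of choline supply had log2 differences on both sides of 0. Of 16 genes 13 passed the filter of a mean of 0.5 FPKM, and their median log2 difference was -0.04 (-0.06 without WT replicate 1 or 3, -0.02 without WT replicate 2 or KO replicate 1), with 0 at an unadjusted p under 0.05. Acly, which makes acetyl-CoA in the cytosol, averaged 72.2 ± 3.25 FPKM over WT and 62.0 ± 6.97 over KO (SD, n = 3 each, limma adjusted p = 0.340). Flvcr1, a choline importer, was at 3.22 ± 0.421 and 2.57 ± 0.387 FPKM, and Pcyt1a, of phosphatidylcholine synthesis, at 6.07 ± 0.643 and 5.26 ± 0.115 FPKM. In acetylcholine breakdown, Bche (butyrylcholinesterase) measured 1.44 ± 0.471 and 0.836 ± 0.178 FPKM and Prima1, the anchor that holds acetylcholinesterase in neuronal membranes, 15.3 ± 2.42 and 11.7 ± 3.02 FPKM. Prima1 had a log2 difference of -0.40 ± 0.21, which was -0.17 without KO replicate 3. Of these 2 genes Bche was lower at an unadjusted p under 0.05 (limma adjusted p = 0.294), and Colq, which is also on that list, did not pass the filter.

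Neurotrophin genes and partners of p75 had a median log2 difference of 0.12 over 16 of 18 genes (0.07 without KO replicate 3), with 3 higher and 1 lower at an unadjusted p under 0.05. Lingo1, which forms a receptor complex with p75, stood at 17.0, 15.1 and 12.9 FPKM in the WT libraries and at 22.2, 37.5 and 22.7 in the KO libraries, opposite to Ngfr. Its log2 difference was 0.82 ± 0.21 (adjusted p = 0.218) and 0.58 without KO replicate 2. Sorcs2, a sortilin-family partner of p75, was at 6.97 ± 0.287 and 8.28 ± 0.482 FPKM (SD, n = 3 each).

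Among acetylcholine receptors, 12 of 20 listed genes passed the filter, with a median log2 difference of -0.04 (-0.08 without WT replicate 2, -0.01 without WT replicate 1, 0.00 without KO replicate 3), and 2 were higher and 1 lower at an unadjusted p under 0.05. The muscarinic genes Chrm1 and Chrm3, which couple to Gq, averaged 10.6 ± 2.01 and 3.49 ± 0.425 FPKM over WT and 19.1 ± 5.62 and 4.75 ± 0.835 over KO, while the Gi-coupled Chrm2, an autoreceptor of cholinergic terminals, measured 6.98 ± 0.957 and 5.05 ± 0.861 FPKM (SD, n = 3 each). Groups did not overlap for these 3 genes, which were named for the smallest p in their list, and over all genes tested KO lay entirely above WT for 11.8% and entirely below it for 10.8%. Their limma adjusted p-values were 0.220, 0.283 and 0.268. Of the vesicle genes that many neurons share, 13 of 14 were tested, with a median of 0.14 (0.04 without WT replicate 2) and with 2 higher and 1 lower at that level. Slc18a2, the monoamine counterpart of Slc18a3, was at 2.24 ± 0.185 and 1.61 ± 0.230 FPKM, Rab3a at 183 ± 7.51 and 219 ± 10.3 FPKM, and Sv2b at 10.1 ± 1.08 and 22.0 ± 11.4 FPKM. Without KO replicate 2, which held Sv2b at 35.1 FPKM, its log2 difference of 0.98 was 0.59.

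**Figure D4:**
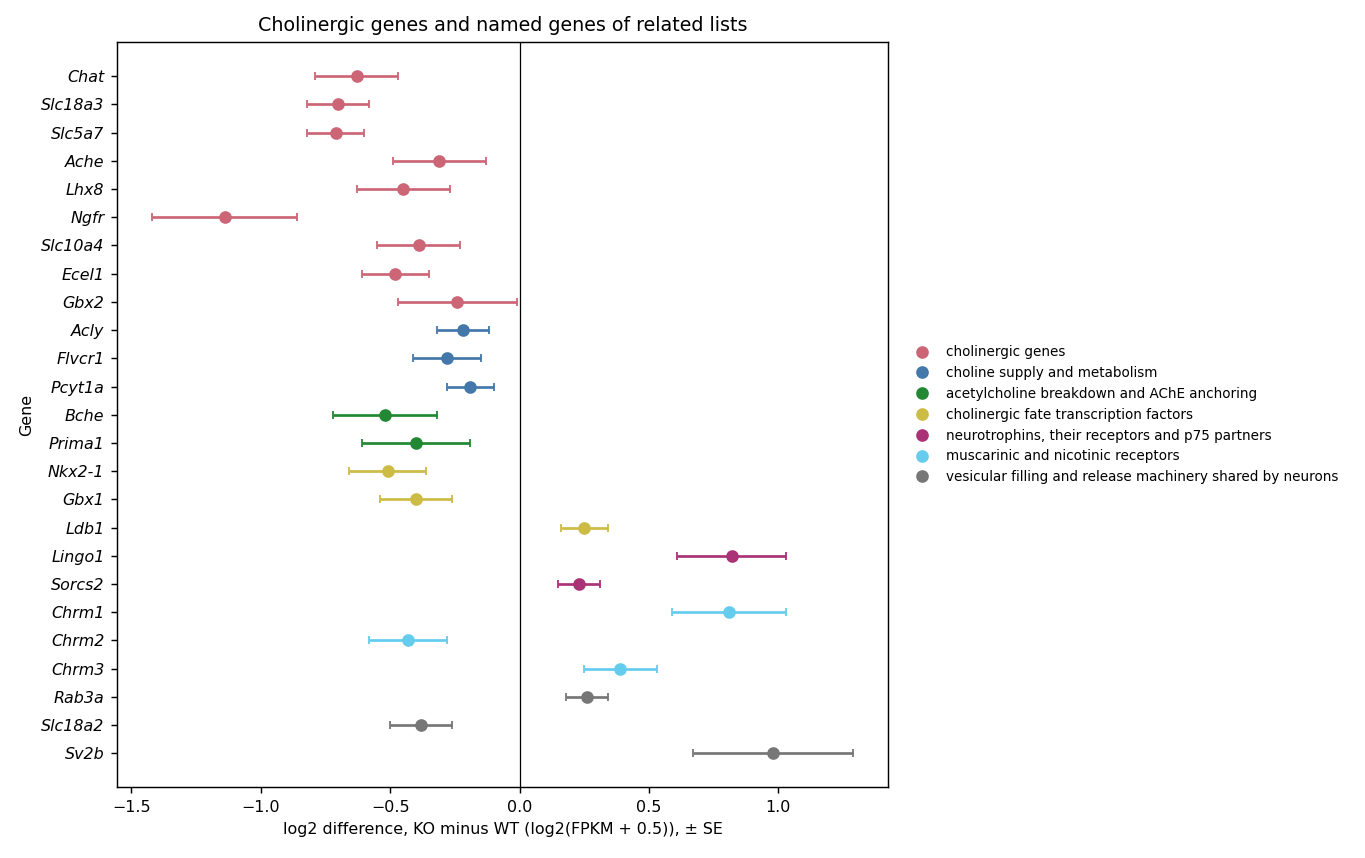
Log2 difference in KO minus WT with its standard error (n = 3 per group) for the 9 cholinergic genes and genes named by rule from the 6 related lists. Cholinergic genes lie from -0.24 to -1.14, and genes of the other lists lie on both sides of 0.

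Markers of neighbouring regions and of other cell types also differed between the libraries, and their part in the values of the cholinergic genes was not tested. Of all 16155 genes tested, 8312 had a positive and 7843 a negative log2 difference. Genes of the same cell type can vary together, so the counts of signs within a list below are not separate observations. Markers of pallidal and basal forebrain GABA neurons, cells that lie among the cholinergic neurons, had 7 of 8 negative log2 differences and a median of -0.29, which was -0.18 without KO replicate 2. Nkx2-1, Lhx6 and Etv1 of this list also belong to the 11 transcription factors of cholinergic fate above, so these lists share genes and are not separate observations. The summed level of the GABA neuron markers was 119 to 128 FPKM in WT and 83.8 to 116 FPKM in KO, with KO replicate 2 lowest. The most abundant of them, Pvalb, stood at 47.2, 58.0 and 60.2 FPKM in the WT libraries and at 41.8, 32.9 and 56.9 in the KO libraries. Septal markers had 5 of 6 negative differences and a median of -0.10 (-0.03 without KO replicate 2, -0.16 without WT replicate 3 or KO replicate 3), with Zic1 at 10.9 ± 0.985 FPKM in WT and 7.69 ± 1.16 in KO (SD, n = 3 each). Their summed level was 25.8 to 26.8 FPKM in WT and 21.7 to 23.6 FPKM in KO.

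Striatal projection neuron markers lay in the opposite direction to the cholinergic genes, with 10 of 10 positive log2 differences and a median of 0.53, which was 0.32 without KO replicate 2. They summed to 825 to 1110 FPKM in WT and 1180 to 1680 FPKM in KO. Penk, the most abundant of them, averaged 383 ± 64.3 FPKM over WT and 471 ± 24.4 over KO (SD, n = 3 each). Markers of basolateral amygdala and other pallial excitatory neurons were also positive in 9 of 9 (median 0.88, and 0.50 without KO replicate 2), and they summed to 36.4 to 39.5 FPKM in WT and to 67.7, 182 and 62.8 FPKM in KO replicates 1 to 3. Lmo3, the most abundant of these, was at 25.6 ± 1.23 and 38.1 ± 11.5 FPKM. The median of the general neuron markers was 0.12 (0.08 without WT replicate 2, WT replicate 3 or KO replicate 2), with Snap25 at 193 ± 27.6 and 234 ± 27.7 FPKM.

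Hypothalamic markers had 8 of 8 negative log2 differences and a median of -0.78. Leaving out KO replicate 2 gave -0.18 and leaving out KO replicate 1 gave -1.38. Their summed level was 531 to 966 FPKM in WT, 1090 in KO replicate 1, 8.19 in KO replicate 2 and 352 in KO replicate 3. Among the KO libraries this is the same order as that of the summed cholinergic genes, which were at 149, 96.8 and 115 FPKM in KO replicates 1 to 3. Over WT replicates 1 to 3 the orders differed, with hypothalamic sums of 966, 935 and 531 FPKM and cholinergic sums of 172, 166 and 184 FPKM. The septal list (23.6, 21.7 and 23.0 FPKM) and the cholinergic fate factors (93.2, 75.5 and 84.9 FPKM) had the same KO order as the cholinergic sums. So had the habenula list (17.7, 7.21 and 9.74 FPKM) and the neurotrophin list (607, 570 and 606 FPKM). This order was thus not particular to hypothalamic markers. Other lists differed in KO, among them the pallidal (101, 83.8 and 116 FPKM) and oligodendrocyte lists (1310, 912 and 1360 FPKM). A link between these lists was not tested. Avp, the vasopressin gene, was at 350 to 783 FPKM in WT and at 894, 2.20 and 325 FPKM in KO replicates 1 to 3. Oligodendrocyte markers had 10 of 10 negative differences (median -0.72) and summed to 1490 to 1980 FPKM in WT and 912 to 1360 FPKM in KO. The most abundant of them, Mbp, measured 478 ± 84.5 and 436 ± 105 FPKM (SD, n = 3 each). Astrocyte and vascular or meningeal markers had medians of -0.01 and 0.01, thalamic markers -0.04, central amygdala markers -0.10 and microglial markers -0.21. Without 1 library the astrocyte median ran from -0.17 (without KO replicate 3) to 0.04 (without KO replicate 2) and the vascular one from -0.21 (without WT replicate 1) to 0.17 (without WT replicate 3). The thalamic median ran from -0.12 (without KO replicate 2) to -0.01 (without WT replicate 1 or 2), and the central amygdala one from -0.28 (without KO replicate 1) to 0.10 (without KO replicate 2).

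**Figure D5:**
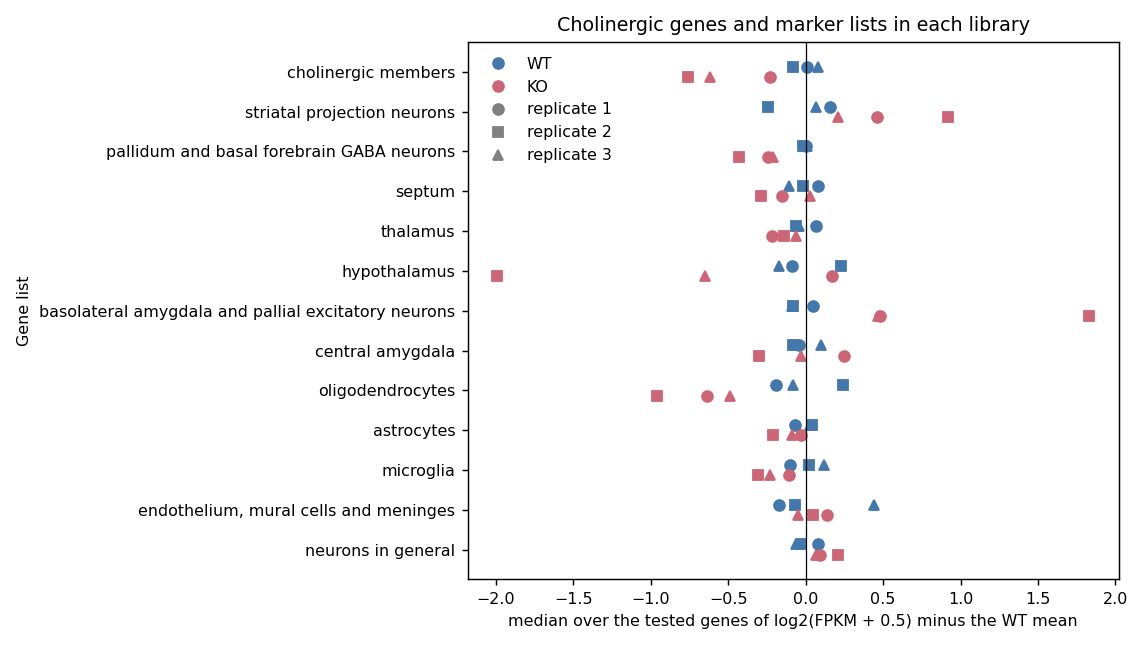
Median over the tested genes of each list of log2(FPKM + 0.5) minus the WT mean, in each library (blue WT, red KO; symbols mark replicates 1 to 3). The cholinergic genes lie at -0.23, -0.76 and -0.62 in KO replicates 1 to 3, striatal markers are above 0 in all KO libraries, and KO replicate 2 is at -1.99 for hypothalamic and 1.83 for pallial markers.

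The genes with the most similar pattern over the 6 libraries were taken by the Pearson correlation with the mean standardized profile of Chat, Slc18a3 and Slc5a7. Among 12192 protein-coding genes that averaged 1 FPKM or more, the first 8 were 1700067K01Rik, Asah2, Pcdh17, Cx3cr1, Rbl2, Rbbp8, Ublcp1 and Tmpo, with r from 0.9789 to 0.9971 over 6 libraries. These values describe a ranking over few libraries that share 2 groups, and many genes reach high values by the choice alone. Asah2 averaged 7.41 ± 0.393 FPKM over WT and 5.40 ± 0.586 over KO, and Pcdh17, a protocadherin, 8.08 ± 0.181 and 6.26 ± 0.399 FPKM (SD, n = 3 each). Cx3cr1, a microglial receptor, was at 14.7 ± 0.188 and 13.1 ± 0.429 FPKM. Among the other 6 cholinergic genes the same measure was 0.96 for Ngfr, 0.95 for Ecel1, 0.89 for Slc10a4, 0.81 for Lhx8, 0.73 for Ache and 0.47 for Gbx2. In that order, 35, 59, 241, 624, 1114 and 2791 of the 12192 genes had a higher value. The cholinergic genes were chosen with the group difference known, so nothing is read from their values.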

How the data were processed

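The authors deposited 1 table of FPKM values with gene symbols, coordinates and lengths, and per the submitters' processing notes the build was GRCm38, also written mm10. Per the labels' protocols, RNA was column-purified and a SMARTer mRNA kit was used for the libraries. The sources used here name no aligner, counting program or annotation. All sample columns matched a sample by name, with 0 left over. FPKM times gene length gave whole reads (within 0.01 of a read for 100% of nonzero values), which supply depth and 95% Poisson intervals.

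Groups were compared with limma in its trend mode, robust (limma 3.58.1, R 4.3.3), on log2(FPKM + 0.5), for the 16155 genes averaging 0.5 FPKM or more, with Benjamini-Hochberg adjustment and a threshold of 0.05. It was also run on simulated counts with the same dispersion for all genes and no outlying library. That run cannot show how the test behaves with libraries as unlike as KO replicate 2. The labels name samples only by number, so p-values reflect only the spread between them, which may be technical. The cholinergic genes, the 6 related lists and the 14 marker lists were chosen with earlier results of these data known. From each related list up to 3 genes of at least 1 FPKM with the smallest unadjusted p were named, from each marker list the most abundant gene, and the 8 genes most similar in pattern. Rspo2, Slc17a7, Oxt, Isl1, the Y-linked and Xist values, and the single genes of the habenula and motor neuron lists were named after their values were seen. Of the genes so chosen, 1 is not reported here. No sequence of these genes was used here.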

Additional observations from a re-analysis of the deposited data

How the results depend on the processing

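All 9 cholinergic genes kept a negative log2 difference under each of 16 alternatives, and 0 passed the adjusted threshold in any of them. Their median was -0.54 to -0.48 under other pseudocounts, filters, scalings, test settings and voom, and -0.61 to -0.36 when 1 library was left out. The count of cholinergic genes without overlap (5), an alternative added after seeing the data, was 5 to 8 when 1 library was left out. Genes called over the whole table were 1 lower and 1 higher. Lower calls were 0 with a pseudocount of 0.1, no filter, a filter of 1 FPKM, quantile normalization, the replicate number as a block or voom, 4 after rescaling to an equal FPKM sum, and 0 in each fit that left out 1 library. Higher calls were 0 with a pseudocount of 0.1, no filter, the 1 FPKM filter, the replicate block or voom, and 0 to 9 when 1 library was left out, with 9 without KO replicate 1. Same-numbered libraries did not deviate together (r = -0.09, -0.14 and -0.07), so the numbers were not taken as pairs. The block changed no call among the cholinergic genes or the related lists.

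List medians moved by more than the spread between libraries in these cases, whose cause was not tested. Choline supply was -0.08 after equal-sum rescaling and -0.08 with voom. Acetylcholine breakdown was -0.63, hypothalamic markers -1.81 and pallial markers 1.56 with voom. Under quantile normalization the shared vesicle genes were at 0.05 and general neuron markers at 0.02. Habenula markers (0.28) were at 0.48 with a pseudocount of 0.1, -0.06 with no filter, -0.11 with the 1 FPKM filter and 0.54 with voom. Leaving out 1 library gave ranges of 0.04 to 0.17 for the vesicle genes, 0.13 to 0.45 for habenula, -0.33 to -0.18 for pallidal, -0.12 to -0.01 for thalamic, -0.28 to 0.10 for central amygdala and -0.17 to 0.04 for astrocyte markers. Among single marker genes the sign turned on leaving out 1 library for Rora (0.00 without WT replicate 1, 0.06 without KO replicate 1, lowest -0.16), Mbp (0.07 without KO replicate 2, lowest -0.28), C1qa (0.02 without WT replicate 3 or KO replicate 3, lowest -0.22) and Cldn5 (0.03 without WT replicate 3, lowest -0.32). The motor neuron list had no value under the 1 FPKM filter, which left none of its genes. Depth limits Gbx2 most, with 28 to 90 reads per library.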
